A study of Mus musculus with 5 samples.

Results

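Complement is a set of plasma and membrane proteins that mark, opsonize and lyse targets, and this report describes 34 of its genes: components, receptors and regulators. The genes were chosen by name, and each array probe was assigned to a gene through the RefSeq accession listed for it. All 34 were on the array, through 43 probes out of 41174, of which 24375 could be assigned to 1 of 17016 genes. By the cell type that mainly makes them, 19 were grouped as hepatocyte-made and 10 as macrophage-made or myeloid. The other 5 were Cfd (adipocytes), Cd55 and Cd59a (membrane regulators of many cell types), Cr2 (B cells) and Colec11 (stellate cells).

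RNA came from 5 liver samples, called livers 1 to 5, of male C57BL/6N mice fed ethanol in the diet over 8 weeks, with 3 binge doses of ethanol (5 g/kg) at the end. Each was hybridized in Cy5 on its own 2-colour Agilent array, against a purchased RNA sold as assorted mouse total RNA and labelled as liver in Cy3. The age of the mice is not given, all 5 samples form 1 group, and dyes were not exchanged on any array. Diet controls were not analysed here, so every ratio below sets the ethanol-fed and binged livers against the reference RNA, and the effect of ethanol was not measured. Whether each sample is a different mouse is not stated, so the p-values reflect spread among these 5 samples, and that spread may be technical.

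Complement is started by antibody or pattern binding of C1q (the classical pathway), by mannose-binding lectins, ficolins and collectins with their MASP proteases (the lectin pathway), or by turnover of C3 itself, amplified by factors B and D and held together by properdin (the alternative pathway). All routes cleave C3 and then C5, which leads to the membrane attack complex of C5b, C6, C7, C8 and C9. Hepatocytes make most of the plasma components, and several of these, C3 among them, are acute phase proteins whose synthesis is raised by inflammatory cytokines. C1q is an exception, since it is made chiefly by macrophages, in the liver by Kupffer cells.

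The results below turn on C3, on the terminal components C6 and C9, which were both low in livers 3 and 5, and on the C1q chains. The 250 bases upstream of their annotated starts are printed as examples, and do not stand for other genes of these groups. They come from RefSeq in build GRCm38.p6, 5′ to 3′ on the strand of the gene. The windows are chr17:57228137-57228386 on the minus strand (C3), chr15:4726960-4727209 on the plus strand (C6), chr15:6445096-6445345 on the plus strand (C9), chr4:136886201-136886450 on the minus strand (C1qb) and chr4:136892915-136893164 on the minus strand (C1qc). Of the 34 genes 26 have an entry in that table, and C1qa does not. Capitals mark matches, on either strand, to TTNNGNAA (C/EBP, the factor family of acute phase and liver genes), TTCNNNGAA (STAT3) or GAGGAA (the ETS core that PU.1 of myeloid cells binds).
C3: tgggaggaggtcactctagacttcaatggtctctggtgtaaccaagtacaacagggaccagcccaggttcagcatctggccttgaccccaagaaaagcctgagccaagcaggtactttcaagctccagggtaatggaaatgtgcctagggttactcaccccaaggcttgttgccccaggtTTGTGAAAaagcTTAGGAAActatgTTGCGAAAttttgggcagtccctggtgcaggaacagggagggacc
C6: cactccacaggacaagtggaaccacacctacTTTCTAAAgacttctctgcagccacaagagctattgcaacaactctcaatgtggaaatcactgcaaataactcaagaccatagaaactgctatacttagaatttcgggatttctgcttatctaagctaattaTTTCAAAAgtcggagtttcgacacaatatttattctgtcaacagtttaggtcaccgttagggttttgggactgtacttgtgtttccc
C9: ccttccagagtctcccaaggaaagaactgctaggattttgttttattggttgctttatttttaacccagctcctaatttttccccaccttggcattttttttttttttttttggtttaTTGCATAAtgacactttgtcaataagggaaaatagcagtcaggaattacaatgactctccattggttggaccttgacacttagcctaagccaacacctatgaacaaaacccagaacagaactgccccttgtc
C1qb: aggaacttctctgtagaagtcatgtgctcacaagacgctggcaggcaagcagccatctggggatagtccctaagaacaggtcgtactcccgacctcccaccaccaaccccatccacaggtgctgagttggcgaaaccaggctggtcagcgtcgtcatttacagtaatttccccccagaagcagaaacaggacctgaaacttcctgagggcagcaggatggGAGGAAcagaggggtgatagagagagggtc
C1qc: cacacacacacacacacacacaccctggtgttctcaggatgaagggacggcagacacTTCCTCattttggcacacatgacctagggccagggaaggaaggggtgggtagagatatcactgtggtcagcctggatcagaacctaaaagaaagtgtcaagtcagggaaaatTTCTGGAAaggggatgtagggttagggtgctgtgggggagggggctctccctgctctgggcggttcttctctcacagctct
The C3 window held 3 matches to the C/EBP letters, beginning 70, 58 and 45 bases upstream of the start, and was the only 1 of the 26 with 3. Among 32851 promoter windows of the same length, 2.61% held at least 3 and 36.8% at least 1. Of the 26 complement genes with an entry, 12 held at least 1 C/EBP match. C6 had 2 C/EBP matches and C9 had 1. The GAGGAA core occurred in both C1q windows, but in only 5 of the 26 complement genes with an entry, against 23.3% of all windows. C1qc also had 1 C/EBP match. The STAT3 letters, found in 7.02% of all windows, did not occur in these 5, nor did those of an NF-kB consensus (4.65%). Matches of this kind describe letters only.

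On the arrays, median background-subtracted signal over all probes ran from 78.4 to 177 for the livers and from 75.5 to 151 for the reference. No spot was saturated. Of 8 hepatocyte markers 6 were tested, and each of these was detected on every array in Cy5 and in Cy3. They were not at the same level in both: all 6 had a mean ratio above 0 and 4 lay above the reference, with a median log2 ratio of 0.73. Summed over these markers, liver signal ran from 532103 to 614915 and reference signal from 230524 to 301320. Beyond the liver label, the make-up of the reference RNA is not known here. A gene was tested if its probe was marked well above background on 3 or more arrays, in Cy5 or in Cy3, and kept at least 3 values, which left 28 of the 34 complement genes and 14912 genes in all. Ratios are log2 values of liver over reference, as mean ± SD over livers. A gene is called higher or lower if limma's Benjamini-Hochberg adjusted p over all tested genes is below 0.05 and the mean differs at least 2-fold. It is said to lie above or below the reference if only the adjusted p passes.

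The medians of hepatocyte-made and macrophage-made complement genes lay on different sides of the reference. Of the 15 tested hepatocyte-made genes, 10 had a mean ratio above 0, against 46.8% of all tested genes, and their median was 0.14. Of the 8 tested macrophage-made genes, 1 had a mean above 0 and 7 had a mean below, against 53.2% of all tested genes, and their median was -0.28. The median over all tested genes was -0.02. Taking the genes with a value on every array, the hepatocyte-made median exceeded the macrophage-made median in each liver, at 0.26 against -0.45 in liver 1, 0.23 against -0.14 in liver 2, -0.10 against -0.57 in liver 3, 0.16 against -0.22 in liver 4 and 0.03 against -0.28 in liver 5. These medians over named genes carry no test. With median centring in place of loess the hepatocyte-made median was 0.04, with 8 of 15 genes above 0, and the macrophage-made median was -0.33. Without liver 4 the hepatocyte-made median was also 0.04. Under every setting the hepatocyte-made median was above 0 and the macrophage-made median below 0. The hepatocyte markers had a higher median (0.73) than the hepatocyte-made complement genes. Fetuin-A (Ahsg) was at 1.72, albumin (Alb) at 1.15, Apoa1 at 0.94 and Apoh at 0.52, while Apob at 0.24 and Ttr at 0.23 did not pass. The part of the hepatocyte markers in this contrast was not tested.

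Single genes were then compared with the reference. C3 was the 1 complement gene called higher, where 0.865% of all tested genes were, and Cfd was the 1 called lower, where 0.416% were. Without the 2-fold minimum, 6 of 28 lay above the reference (C3, Vtn, C4bp, Cfi, Clu and Cr2), where 14.2% of all tested genes did. Likewise 6 of 28 lay below it (Cfd, C1qa, C1qb, C1qc, Fcna and Colec11), where 12.8% did. The 5 hepatocyte-made genes above the reference were C3 and all 4 tested soluble regulators, and the 4 macrophage-made genes below it were the 3 C1q chains and ficolin A. No tested hepatocyte-made gene was below and no tested macrophage-made gene above. That split did not hold under every setting. C6 lay below the reference without liver 1. Cfp, macrophage-made and not tested here, lay above it with spots marked by the scanner software kept, but not in the authors' deposited ratios.

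**Figure D1:**
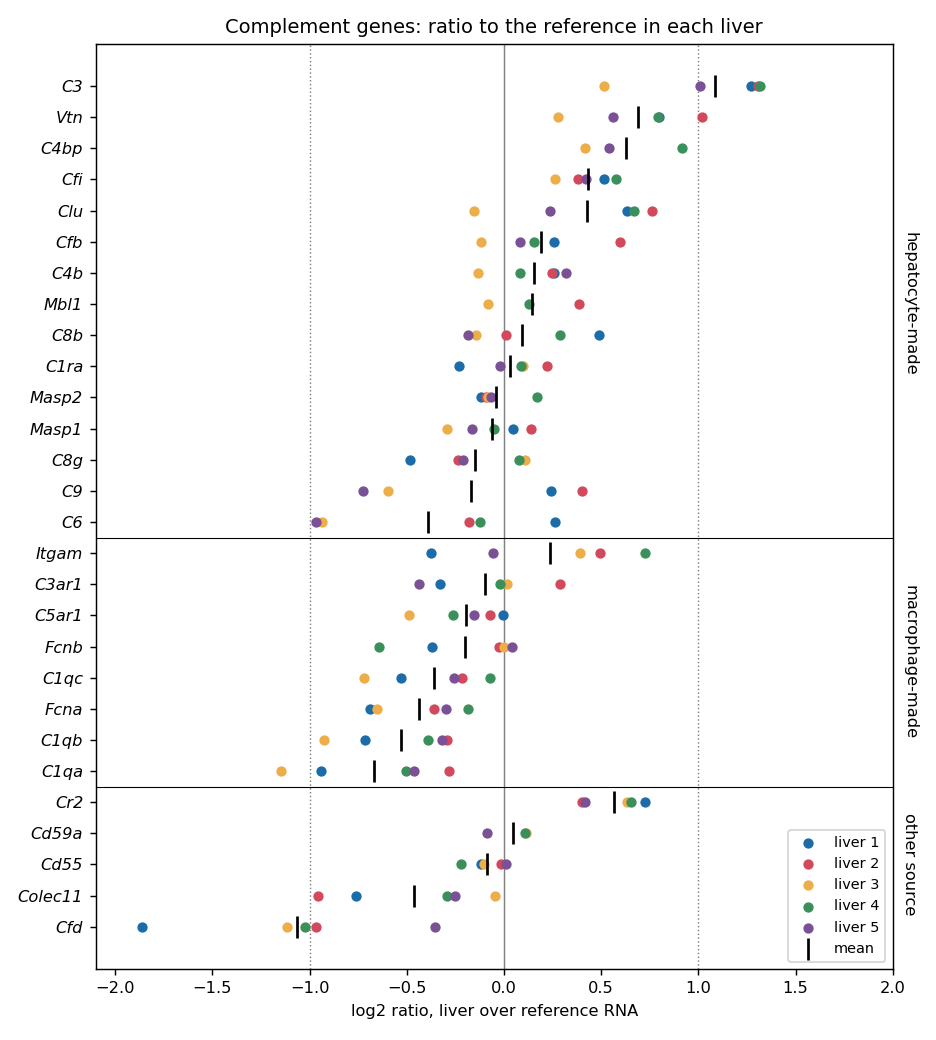
Log2 ratio of liver over reference RNA (horizontal axis) of the 28 tested complement genes, grouped by the cell type that mainly makes them; each coloured point is 1 liver, black bars are means, and dotted lines mark a 2-fold difference. C3 is the highest and Cfd the lowest, and all 5 points of C1qa, C1qb, C1qc and Fcna lie left of 0.

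C3, the component on which all pathways converge, had log2 ratios of 1.27, 1.30, 0.51, 1.32 and 1.01 in livers 1 to 5. Liver 3 was well below the other livers, and all 5 were above the reference. The mean was 1.08 ± 0.34 (SD, n = 5), or 2.12-fold, with an adjusted p of 0.00115, which ranked C3 at 111 of 14912 from the highest. The probe is spotted 10 times on each array, of which between 8 and 10 spots were used. The SD between spots within an array was between 0.0302 and 0.0548, against 0.34 between livers. Every spot of liver 3 lay between 0.45 and 0.64, and the lowest spot of any other liver was at 0.97. The distance of liver 3 from the other livers was thus larger than the spot error, while array and liver cannot be told apart, as each liver has 1 array.

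A second, dimmer C3 probe gave 1.04, 0.82, 0.13, 0.66 and 0.32. Liver 3 was again the lowest, liver 5 came next, and the second probe was below the first in 5 of 5 livers, by 0.49 ± 0.19 on average. Fitted as a feature of its own, it stood at 0.60 ± 0.37, above the reference (limma adjusted p = 0.0110) but short of 2-fold. The 2-fold call of C3 therefore rests on the brighter probe: with both averaged the mean was 0.84. It was also short of 2-fold from processed signals and in the authors' deposited table (0.84 each) and with median centring in place of loess (0.98), and its adjusted p stayed below 0.05 in each of these.

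**Figure D2:**
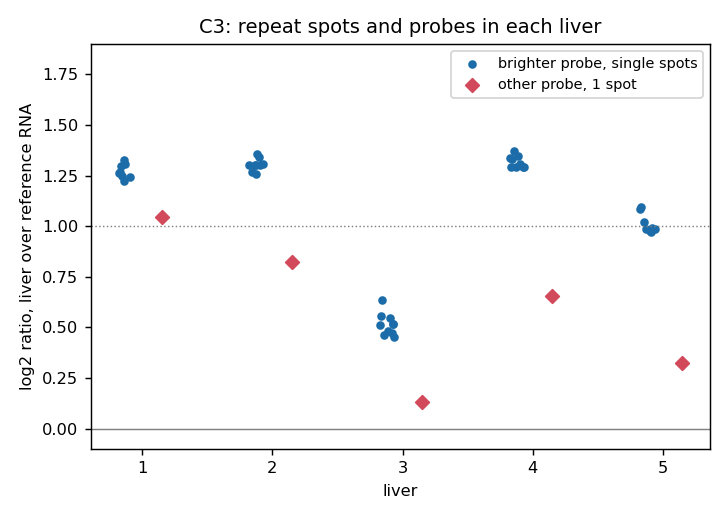
Log2 ratio of liver over reference RNA (vertical axis) for C3 in each liver (horizontal axis): circles are single spots of the brighter probe, shifted sideways at random for legibility, diamonds are the 1 spot of the other probe, and the dotted line marks 2-fold. Spots of liver 3 lie between 0.45 and 0.64, all spots of the other livers at 0.97 or more, and the other probe is lower in every liver.

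Soluble regulators, which limit complement in plasma, were the role with the most genes above the reference, 4 of 4 tested. Of all tested genes 14.2% lay above it. Serping1, the other gene listed in this role, kept too few values to be tested. With spots marked by the scanner software kept, Serping1 did not pass (limma adjusted p = 0.121). Vtn encodes vitronectin, which blocks insertion of the attack complex into membranes, and had ratios of 0.79, 1.02, 0.28, 0.79 and 0.56. Its mean was 0.69 ± 0.28 (adjusted p = 0.00340), with liver 3 lowest and all 5 livers above 0. Clu encodes clusterin, another inhibitor of the attack complex, and had 0.63, 0.76, -0.16, 0.67 and 0.24. In Clu 4 of 5 livers were above 0 and liver 3 was the 1 below, with a mean of 0.43 ± 0.38 (adjusted p = 0.0427).

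Cfi, factor I, the protease that inactivates C3b and C4b, had 0.52, 0.38, 0.26, 0.58 and 0.42, the narrowest range of the 4. Its mean was 0.43 ± 0.12 (adjusted p = 0.00452). C4bp, the C4b-binding protein that serves factor I as cofactor, had 0.42, 0.92 and 0.54 in livers 3, 4 and 5, with a mean of 0.63 ± 0.26 (n = 3, adjusted p = 0.0122). Spots of livers 1 and 2 were marked non-uniform by the scanner software and left out of the fit. With median centring Clu, Cfi and C4bp did not pass (adjusted p = 0.156, 0.141 and 0.108, at means of 0.29, 0.28 and 0.40). Clu also did not pass with processed signals (0.0673), in the deposited table (0.0688), or without liver 1 (0.107), 2 (0.123), 4 (0.134) or 5 (0.0662).

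Early components made by hepatocytes were close to the reference. Cfb, factor B, the protease precursor of the alternative pathway, had ratios of 0.25, 0.60, -0.12, 0.15 and 0.08, highest in liver 2 and below 0 only in liver 3. Its mean of 0.19 ± 0.26 did not pass (adjusted p = 0.184). C4b, which encodes C4, was at 0.16 ± 0.18 and likewise lowest in liver 3, at -0.13. C4a, a close paralog whose probe may share signal with that of C4b, lay above the reference at 0.43 ± 0.15 (adjusted p = 0.00673). The classical protease gene C1ra was at 0.03 ± 0.17.

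In the lectin pathway, Mbl1, a mannose-binding lectin, was at 0.14 ± 0.23 (n = 3), and the protease genes Masp1 and Masp2 were at -0.06 ± 0.17 and -0.04 ± 0.12. None of these 3 passed. Masp2 has 3 probes, and that listed under another RefSeq transcript differed from the other two. It gave 0.31, -0.01, 0.38, 0.39 and 0.18, against -0.12, -0.09, -0.08, 0.17 and -0.07 for the brightest. The difference was positive in 5 of 5 livers, 0.29 ± 0.16 on average. Fitted by itself this probe did not pass (limma adjusted p = 0.0584).

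Terminal components, which build the membrane attack complex, had 0 of 4 tested genes past the test, and 2 of them, C6 and C9, had the widest ranges over livers among the hepatocyte-made genes. C6 had ratios of 0.26, -0.18, -0.93, -0.12 and -0.97, so that livers 3 and 5 stood low. Its mean of -0.39 ± 0.54 did not pass (adjusted p = 0.154), but without liver 1 it was at -0.55 and passed (0.0472). C9, whose protein forms the pore, had 0.24, 0.40, -0.60 and -0.72 in livers 1, 2, 3 and 5, with livers 3 and 5 again low. The spot of liver 4 was left out as non-uniform, and with it kept its ratio was 0.49.

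C8b, which encodes the beta chain of C8, was lowest in the same livers, at -0.14 and -0.19 in livers 3 and 5 against 0.49, 0.01 and 0.29 in livers 1, 2 and 4. C8g, the gamma chain, ran otherwise, with -0.48, -0.24, 0.11, 0.08 and -0.21. Liver 1 was thus the highest for C6 and C8b and the lowest for C8g.

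The C1q chains, which form the recognition molecule of the classical pathway, were below the reference in all 5 livers. C1qa had -0.94, -0.28, -1.15, -0.51 and -0.46, with a mean of -0.67 ± 0.36, or 1.59-fold lower (adjusted p = 0.00775). C1qb had -0.72, -0.29, -0.93, -0.39 and -0.32, with a mean of -0.53 ± 0.28 (adjusted p = 0.00894). C1qc had -0.53, -0.22, -0.72, -0.07 and -0.26, with a mean of -0.36 ± 0.26 (adjusted p = 0.0333). In each of the 3 genes liver 3 was lowest and liver 1 next. Each chain has 1 probe, detected by both dyes on every array. C1qc did not pass without liver 1 (0.0901), 2 (0.0502) or 5 (0.0603), nor without liver 3, at a mean of -0.27. In bulk RNA, fewer cells of a type and less RNA per cell cannot be told apart.

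Fcna, ficolin A, a lectin of liver and spleen macrophages, had -0.69, -0.36, -0.65, -0.18 and -0.30. All 5 livers were below 0, livers 1 and 3 were again the lowest, and the mean was -0.44 ± 0.22 (adjusted p = 0.0120). Fcnb, ficolin B of monocytes and neutrophils, was at -0.20 ± 0.30 and did not pass. Of all tested genes, 53.2% had a mean below 0 and 12.8% lay below the reference. Markers of Kupffer cells and macrophages were below 0 for 9 of 10 tested genes, with a median of -0.34, and 5 lay below the reference. Of these, Lyz2 was at -0.70, Clec4f at -0.52, Mpeg1 at -0.46, Adgre1 at -0.34 and Cd5l at -0.34. The others did not pass, with Cd14 at -0.48, Cd163 at -0.27, Csf1r at -0.06, Timd4 at -0.01 and Marco at 0.30. Cd14 was not low throughout, at 0.97, 1.79, -2.08, -1.79 and -1.30 in livers 1 to 5. Summed over all tested macrophage markers, liver signal ran from 8147 to 14003 and reference signal from 9439 to 15807. Low ratios also occurred outside macrophage genes. Markers of sinusoidal endothelium, another cell type of the liver, had a median of -0.25 with 5 of 6 below 0, and Stab2 at -0.43 and Pecam1 at -0.34 lay below the reference (adjusted p = 0.00442 and 0.0177). Summed over the endothelial markers, liver signal ran from 2518 to 4305 and reference signal from 2730 to 4576. The part of either marker list in the C1q and Fcna ratios was not tested.

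Receptor genes of myeloid cells differed in whether they passed. C5ar1, the receptor of C5a, was at -0.20 ± 0.19, C3ar1, the receptor of C3a, at -0.10 ± 0.29, and Itgam, the alpha chain of complement receptor 3, at 0.24 ± 0.44, and none of the 3 passed. Itgam ran from -0.37 in liver 1 to 0.73 in liver 4. Itgb2, the beta chain that Itgam pairs with, lay below the reference at -0.44 ± 0.11 (adjusted p = 0.00405), as did Vsig4, the complement receptor of Kupffer cells, at -0.68 ± 0.21 (adjusted p = 0.00218). Itgax, the alpha chain of complement receptor 4, was not well above background in either channel on any array and was not tested.

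Of the remaining genes, Cfd was the lowest. It encodes factor D, the protease that activates factor B and is secreted chiefly by fat cells. Its ratios were -1.86, -0.97, -1.12, -1.02 and -0.36, a range of 1.51 in which all 5 livers were below 0, liver 1 the furthest and liver 5 the nearest. The mean was -1.07 ± 0.54, or 2.09-fold lower (adjusted p = 0.00641), at rank 63 of 14912 from the lowest. Without liver 1 it was at -0.87 and fell short of 2-fold. With plain background subtraction Cfd was at -1.30, and from processed signals and in the deposited table at -1.51. The Cfd probe was dim, with signal from 44 to 240 in the livers and from 272 to 444 in the reference. Adipocyte markers had a median of 0.02 over 6 genes, 3 of them above 0 and 3 below. Lep lay above the reference at 0.27 (adjusted p = 0.0100), while Adig was at 0.26, Plin1 at 0.05, Adipoq at -0.0034, Cidea at -0.21 and Retn at -0.29, none of which passed. Cidea was below 0 in 5 of 5 livers and Retn in 4 of 5, and Retn was lowest in liver 1, at -0.71, as Cfd was. Summed over these markers, liver signal ran from 898 to 3028 and reference signal from 1007 to 2641, and their part in the Cfd ratio was not tested.

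Cr2, complement receptor 2 of B cells, had 0.73, 0.40, 0.63, 0.65 and 0.42, all above 0. Its mean was 0.57 ± 0.15 (adjusted p = 0.00255), and a second, dimmer probe was also above the reference at 0.43 ± 0.35 (limma adjusted p = 0.0303). B cell markers had a median of -0.05 over 4 genes, with Pax5 at -0.04, Ms4a1 at -0.06 and Cd79b at -0.28 (adjusted p = 0.0529), while Cd79a lay above the reference at 0.57 (adjusted p = 0.0223). Summed over these markers, 4 tested of 5 used, liver signal ran from 281 to 979 and reference signal from 287 to 837. The brighter Cr2 probe alone ran from 469 to 1060 in the livers and from 283 to 775 in the reference. The part of the B cell markers in the Cr2 ratio was not tested. Colec11, a collectin of the lectin pathway, had -0.76, -0.96, -0.05, -0.29 and -0.25. In contrast to C1q, liver 3 was its highest, and the mean was -0.46 ± 0.38 (adjusted p = 0.0339). Without liver 1, 2, 4 or 5 Colec11 did not pass (adjusted p = 0.0893, 0.0823, 0.0663 and 0.0526).

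Colec10, the collectin that pairs with Colec11, was also below the reference, at -0.31 ± 0.17 (adjusted p = 0.0257). Stellate cell markers had a median of -0.12 over 7 genes, 2 of them above 0 and 5 below. Col1a1 was called lower (adjusted p = 0.0113). The others did not pass, with Des at 0.25, Lum at 0.02, Dcn and Lrat at -0.12, Ecm1 at -0.33 and Reln at -0.38. The part of these markers in the Colec11 ratio was not tested. The regulators Cd55 and Cd59a, which protect host cells, were at -0.09 ± 0.09 and 0.05 ± 0.11 (n = 3). Neither passed, and the Cd55 probe was well above background on 4 of 5 arrays in each channel. Among 25 further complement genes, 16 were tested. C4a was the 1 above the reference, where 14.2% of all tested genes were. Vsig4, Itgb2, C1qbp, Colec10 and Cd59b were the 5 below, where 12.8% were, and none of these genes reached a 2-fold call.

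**Figure D3:**
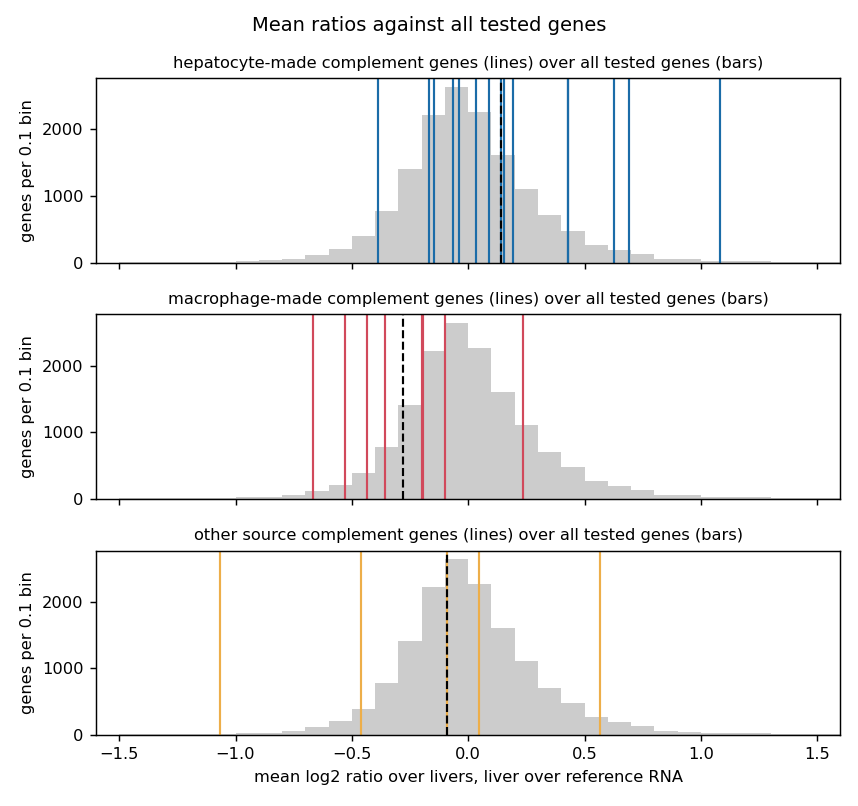
Mean log2 ratio over livers (horizontal axis) of hepatocyte-made, macrophage-made and other complement genes (coloured lines, with the group's median dashed) over the distribution of all 14912 tested genes (grey bars, genes per bin of 0.1). The hepatocyte-made median is at 0.14 and the macrophage-made median at -0.28.

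Differences between livers were the other quantity the design measured. The variance of each gene over livers was set against limma's intensity-dependent prior variance in an F test over the 12014 genes detected by both dyes on every array. No gene passed after adjustment, complement or other, while 665 (5.54%) had an unadjusted p below 0.05, and with median centring 217 genes passed. Of the 23 complement genes in this test, 2 had an unadjusted p below 0.05, C6 (0.0261) and Cfd (0.0315). The order of livers in single genes is therefore given as a description.

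Liver 3 was the lowest of the 5 for 7 of the 12 hepatocyte-made genes with a value on every array, and for 4 of the 8 macrophage-made genes, where it was lowest for 17.8% of all genes. The 7 were C3, Vtn, Cfi, Clu, Cfb, C4b and Masp1. Among acute phase genes liver 3 was the lowest for 13 of 14. Their differences were larger: haptoglobin (Hp) was at 2.41, 2.45, 0.23, 2.15 and 1.80, and the serum amyloid gene Saa1 at 2.74, 3.45, -0.63, 2.15 and 1.56. Haptoglobin thus ranged over 2.22 and Saa1 over 4.08, where C3 ranged over 0.80 and Clu over 0.92. Albumin (Alb), by contrast, was not low in liver 3, at 0.78, 0.95, 1.08, 1.07 and 1.87. Of the 4 hepatocyte markers with a value on every array, liver 3 was the lowest for 1. This was Apoa1, at 1.04, 0.91, 0.50, 0.93 and 1.31. What the acute phase genes share with the complement genes in these livers was not tested.

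**Figure D4:**
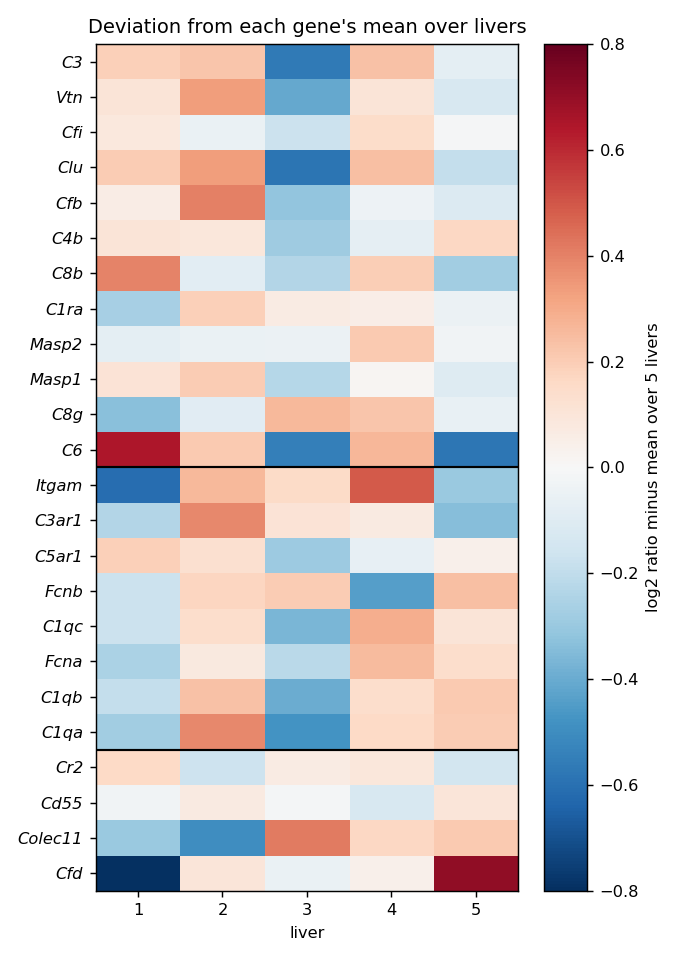
Deviation of each liver (columns) from the gene's mean log2 ratio over 5 livers (colour, red above and blue below, limited at 0.8) for the 24 complement genes with a value on every array, hepatocyte-made genes on top, then macrophage-made and other genes. The column of liver 3 is blue for C3, Vtn, Clu, Cfb, C4b and the C1q chains, and C6 is blue in livers 3 and 5.

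The scanner software's marks bore unevenly on this family. Of the values of the brightest 10% of probes, 20.6% were lost to outlier marks, against 0.976% of the values of all other probes, and 11 of the 43 complement probes lost at least 1 liver. Because of these marks C2, C8a, Mbl2, Serping1 and Cfp kept fewer than 3 values and were not tested. With marked spots kept, all 5 were measured on 5 arrays. C8a, the alpha chain of C8, was then above the reference, with 0.58, 0.32, 0.29, 0.67 and 0.17 and a mean of 0.41 ± 0.21 (limma adjusted p = 0.0120), though all 5 of its spots were marked.

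Cfp encodes properdin, the stabilizer of the alternative convertase, made by myeloid cells. With marked spots kept it had 0.46, 0.59, 0.13, 0.55 and 0.24, with a mean of 0.39 ± 0.20 (limma adjusted p = 0.0130). Under that setting it lay above the reference where C1q and Fcna lay below. Cfp did not pass in the authors' deposited ratios, where 0 of 9 tested macrophage-made genes lay above the reference and 4 lay below. The unmarked spots of Cfp, in livers 3 and 4, gave 0.12 and 0.55. Liver 3 was its lowest. The Cfp probe was far brighter than those of C1q and Fcna. Its liver signal ran from 28397 to 60608, against 367 to 599 for C1qa, 608 to 1005 for C1qb and 155 to 402 for Fcna. Which cells the Cfp signal came from was not tested.

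Serping1, the C1 inhibitor, had 0.31, 0.36, -0.19, 0.39 and 0.21 with marked spots kept, again with liver 3 the 1 below 0. Mbl2, the second mannose-binding lectin, had -0.93, -0.24, 0.23, -0.16 and -0.23, and C2, the classical pathway protease, lay between -0.13 and 0.28. None of these 3 passed (limma adjusted p = 0.121, 0.192 and 0.563). With marked spots kept, 6 of 19 hepatocyte-made genes were above the reference and 0 below. Of 9 macrophage-made genes 1, Cfp, was above and 4 were below. The shares of all tested genes above and below were not counted with marked spots kept. With marked spots left out these shares were 14.2% and 12.8%.

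**Figure D5:**
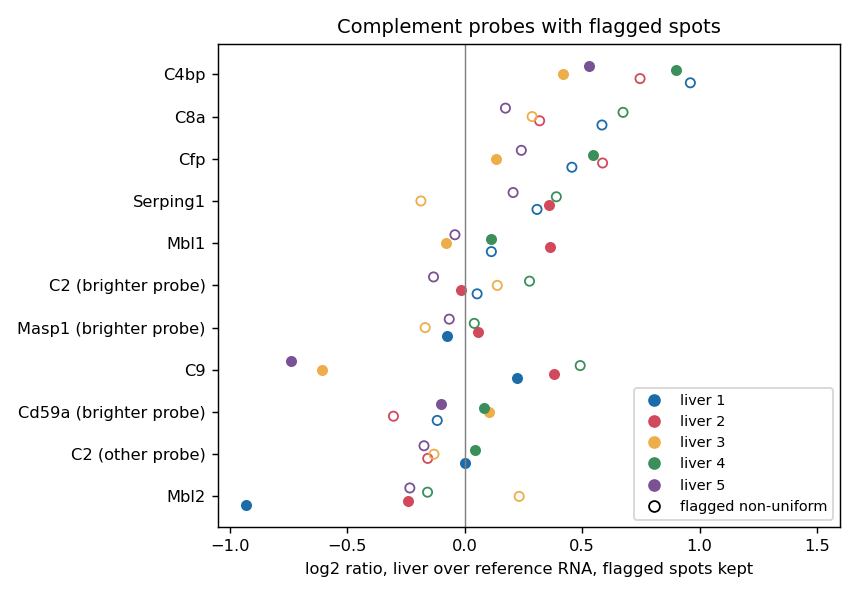
Log2 ratio of liver over reference RNA with marked spots kept (horizontal axis) for the 11 complement probes that lost at least 1 liver; filled points are unmarked spots, open points spots marked as non-uniform, and colours are livers. All spots of C8a are open, and those of C4bp, C8a and Cfp all lie right of 0.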

How the data were processed

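Liver RNA (Cy5) and a common reference RNA (Cy3) were measured on 5 arrays, 1 per slide. Per the file headers, the authors read each spot's intensity with version 11.5.1.1 of Agilent's Feature Extraction, as median brightness of spot and local background and as processed signals, with their log10 ratio as deposited. The deposited table of log2 ratios matched the ratio of processed signals on the log2 scale to within 0.001 for at least 99.6% of probes per array, so its scale and direction are known; its column medians were between -0.10 and -0.03.

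Median intensities were corrected with normexp (offset 50) and normalized by loess within each array, giving control and outlier spots no weight (limma 3.58.1, R 4.3.3). Outlier spots were left out and spots of one probe averaged. Genes were named through RefSeq accessions in a table of assembly GRCm38.p6, while the file headers name mm8 for the array, so no probe coordinates are given. The brightest tested probe stood for a gene. The mean was tested against 0 two-sided, by an intercept model with a robust, intensity-dependent eBayes prior. Between 77.3% and 81.2% of spots were well above background in Cy5, and the number of arrays limits the precision. The scripts recovered changes put into simulated data.

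Genes and lists were chosen with earlier results of these data known. The text gives every complement gene, with all livers for those past a test or at the extremes of their group, and some others chosen after their values were seen. Ratios omit the spread of the reference, and probe-specific dye bias remains in them. Alternatives were other normalizations, background, filters, probe rules, priors and leaving out each liver. Slide as a block could not be fitted, since each slide held 1 array. 1 B cell marker is not reported here, and its list was summarised without it.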

Additional observations from a re-analysis of the deposited data

Results flagged for a closer look

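Of 25 complement genes with at least 4 values, 1 had a liver far from the other 4: Masp2, at 0.17 in liver 4, where the other livers lay between -0.12 and -0.07. Among all genes 5.21% had such a liver, and chance gives about 1 in 20.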

How the results depend on the processing

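C3, called higher, fell short of 2-fold under 4 settings (median centring, processed signals, deposited ratios and probes averaged), so that 0 complement genes were called higher there. With median centring 3 genes in place of 6 lay above the reference, and over all genes 97 were called higher and 77 lower in place of 129 and 62. The count called lower was between 0 and 1 with 1 liver left out, since Cfd fell short without liver 1. Over the 15 settings the mean of Cfd lay between -1.51 and -0.87. Counts above and below the reference lay between 4 and 5 with 1 liver left out. The direction of the mean turned for 6 genes that did not pass the test: with median centring for C1ra (-0.12), C8b (-0.072) and Cd59a (-0.18); with processed signals and in the deposited ratios for C4b (-0.0028 in both); for Cd59a in the deposited ratios (-0.039) and with outlier spots kept (-0.068); for Masp2 with probes averaged (0.051). With 1 liver left out C1ra lay between -0.016 and 0.098, C8b between -0.0093 and 0.16, Cd59a between -0.024 and 0.053, and C9 between -0.36 and 0.016. The other 22 genes kept their direction under all 15 settings that gave a value. No complement gene passed the spread test under any setting. No paired analysis was possible because the samples form 1 group. Slide as a random block was not run. Dim probes limit Cd55 and Itgax, and flagged bright spots limit C4bp, Mbl1 and Cd59a (3 values each).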
